A study of Homo sapiens with 12 samples.

Results

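The libraries described here came from control MOLM13 cells, in which no gene of interest had been targeted. They were chosen as the 4 columns of the deposited expression table that are labelled as control, out of 12 libraries in the series. MOLM13 is an established human acute myeloid leukaemia (AML) line that carries the fusion of KMT2A (MLL) with MLLT3 (AF9) and an internal tandem duplication of FLT3. The control cells carried a stable Cas9 transgene (selected in 5 µg/ml of blasticidin) and were given the pUSEPR guide vector with a red fluorescent marker and puromycin resistance (puromycin at 1 µg/ml). The labels call this control an empty vector in one place and a vector with a non-targeting guide in another, and the 2 cannot be told apart. The other 8 libraries carried 1 of 2 guides against YBX1 and are not described. Cells were sorted for high red fluorescence 7 days after transduction and lysed, and their polyadenylated RNA was read as 37 bp paired ends. The labels number the replicates 1 to 4 and do not say whether they were separate cultures, so the spread given below may be partly technical. Being 1 line and 1 time point, the data describe this culture and not AML cells in general.

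MLL fusion proteins bind chromatin together with menin, DOT1L and the elongation machinery and keep a small set of target genes active, among them the HOXA genes, MEIS1, MYB and MYC. FLT3 is a receptor tyrosine kinase of early blood progenitors whose signal passes to STAT5, RAS-MAPK and PI3K. AML cells are arrested on the way from the granulocyte-monocyte progenitor to mature phagocytes, a path on which primary (azurophil) granule proteins are made first and secondary granule proteins later. The questions put to the data were how far the control cells express genes of each of these groups, and how closely the 4 libraries agree.

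Levels are given as deposited, as regularised log2 values (rlog): a step of 1 is a doubling of the normalised read count, except in weakly covered genes, whose values are drawn towards their mean. A gene was called expressed at a mean level of at least 4 over the 4 control libraries. Of 19755 protein-coding genes, 10974 (55.6%) were expressed, and 8781 were below this floor. Values in parentheses after a gene are its mean rlog level over the 4 libraries unless named otherwise. Of the genes below the floor, 3669 were listed at exactly 0 in all 12 libraries while other weak genes took values down to -2.21 (HOXD13, among others), so 0 is no level on this scale. EEF1G, a translation elongation factor that every growing cell uses, was itself listed at 0. All of its coding bases also belong to the exons of the overlapping gene AP002990.1. Likewise 35 of the 36 entries of 18 pseudoautosomal genes, which the table holds once for X and once for Y, were listed at 0, among them CD99, IL3RA and CSF2RA. Of the genes listed at 0, 357 (9.73%) share more than 50% of their coding bases with exons of another gene, against 4.37% of expressed genes. Most zeros thus have no such overlap. As no counts were used, the zeros were not read as evidence for or against expression. Such genes stay in the number of members of a list and enter list medians as if 0 were a level. Singly they are not read as low.

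Between genes, levels were compared only per transcript length (length-adjusted level: rlog minus log2 of the median length of the protein-coding transcripts in kb). Expressed genes had a median length-adjusted level of 7.71 and quartiles of 6.25 and 9.15. The upper end belonged to the translation machinery. The 15 genes with the highest length-adjusted level (in parentheses) included PABPC1 (16.44), the poly(A)-binding protein, ACTB (16.35), RPS18 (16.18), RPL8 (15.86), the glycolytic enzyme ENO1 (15.78), the elongation factors EEF2 (15.77) and EEF1A1 (15.68), RPLP1, RPS16, RPS12, RPS24, RPL3, mitochondrial MT-CO1 (15.34) and RPLP0 (15.32). Of the 15, 9 encode ribosomal proteins. Some transcript models of PABPC1 and ENO1 are short: by the longest transcript PABPC1 ranked 40 and ENO1 44, and 9 of the 15 genes stayed among the first 15. The 100 highest genes held 31.7% of the summed length-adjusted signal on the linear scale.

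A general leukocyte marker and a general myeloid marker were looked up, and both were expressed. They do not set AML cells or this line apart from other myeloid cells. PTPRC (CD45), the common leukocyte antigen, had levels of 11.38, 11.37, 11.57 and 11.38 in control libraries 1 to 4, and CD33, a myeloid surface antigen, of 9.08, 9.13, 9.20 and 9.27. In a list of markers of other tissues with 21 genes 7 were expressed: PTPRC and PECAM1, which blood cells share, and KRT18 (7.74), KRT8 (6.69), ACTA2 (6.62), SNAP25 (5.44) and TTN (7.39). EPCAM, CDH1, CDH5 and ALB lay at or below -1.97.

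**Figure D1:**
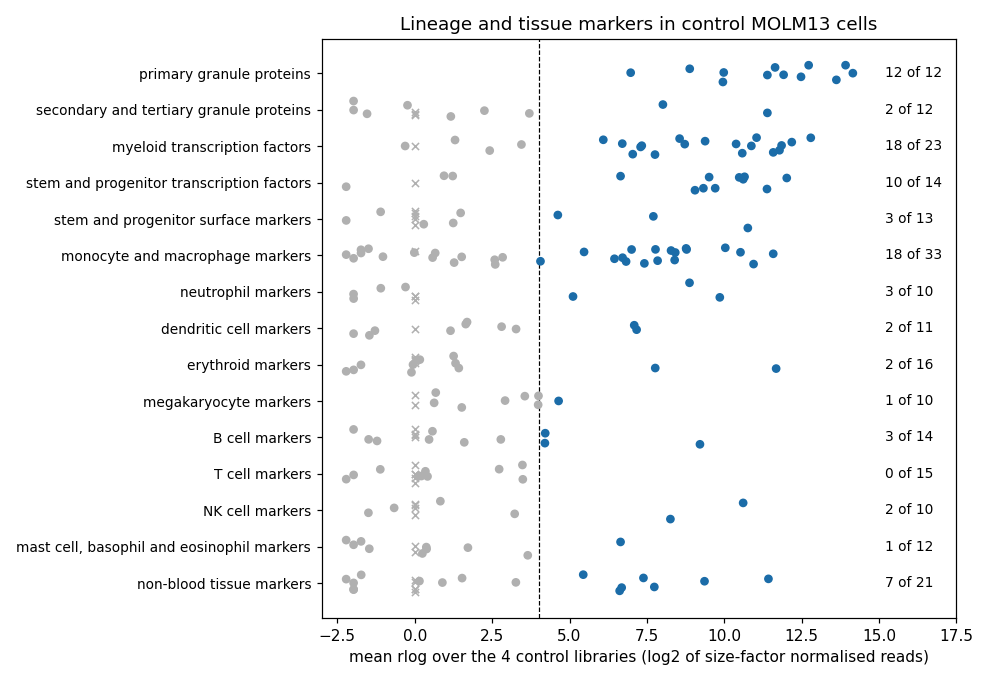
Mean rlog level (log2 of size-factor normalised reads, x axis) of each member of 15 marker lists over the 4 control libraries. Blue points are at or above the floor of 4 (dashed line), grey points below it, crosses are genes listed at 0, and the numbers give the expressed members of each list: all 12 primary granule genes but 2 of 12 secondary granule genes were expressed, and no T cell marker was above the floor (5 of 15 listed at 0).

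Of the lineage lists, that of the primary granule was the one expressed in full. All 12 members were expressed (100% against 55.6% of all genes), with a median length-adjusted level of 11.98 ± 0.23 (SD over the 4 libraries), against 7.72 ± 0.02 for all expressed genes (mean and SD of the 4 library medians). SRGN, the proteoglycan that packs granule proteases, had levels of 14.16, 14.38, 14.03 and 14.04. ELANE, neutrophil elastase, had levels of 13.49, 13.45, 13.58 and 13.97. AZU1, the antimicrobial protein azurocidin, had levels of 13.52, 13.60, 14.12 and 14.44. These 3 genes lay at percentiles 99.3, 99.1 and 99.1 of expressed genes by length-adjusted level, and neighbours among them did not differ beyond the spread between libraries. PRTN3 (proteinase 3) followed at 12.73 ± 0.23 and CTSG (cathepsin G) at 12.48 ± 0.20 (SD, n = 4). LYZ, lysozyme, was high as well but uneven, with 12.13, 12.45, 10.97 and 11.01 in libraries 1 to 4, so that libraries 1 and 2 lay above libraries 3 and 4. MPO, myeloperoxidase, had 9.81, 9.87, 10.03 and 10.22. Per length ELANE exceeded MPO by 4.47 ± 0.09 and AZU1 exceeded it by 4.34 ± 0.26 (log2, SD over libraries), in all 4 libraries and by any of the length measures tried. The lowest members were CST7 (8.88), SERPINB1 (9.96), a mainly cytosolic inhibitor of these proteases, and RNASE3 (6.98), better known from eosinophil granules.

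AZU1, PRTN3 and ELANE are neighbours on the plus strand of chromosome 19, where GENCODE 29 (GRCh38) places AZU1 at 825097 to 832018, PRTN3 at 840960 to 848175 and ELANE at 851014 to 856247. The RefSeq promoter table (GRCh38.p14) matched 14879 of the 19755 genes by symbol, and AZU1, PRTN3 and CTSG are shown because they were the highest genes of this protease family that it holds. The 250 bases before the start site are printed 5′ to 3′ on the strand of the gene, from chr19:827587-827836 (AZU1, plus strand), chr19:840749-840998 (PRTN3, plus strand) and chr14:24576251-24576500 (CTSG, minus strand). Capitals mark GAGGAA, the core bound by the ETS factor PU.1, and CAACTG, bound by MYB, each on either strand.
AZU1: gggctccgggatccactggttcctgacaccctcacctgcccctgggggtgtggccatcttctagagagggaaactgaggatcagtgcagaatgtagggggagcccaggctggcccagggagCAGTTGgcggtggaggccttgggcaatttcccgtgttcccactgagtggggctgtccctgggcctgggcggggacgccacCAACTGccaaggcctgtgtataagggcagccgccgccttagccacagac
PRTN3: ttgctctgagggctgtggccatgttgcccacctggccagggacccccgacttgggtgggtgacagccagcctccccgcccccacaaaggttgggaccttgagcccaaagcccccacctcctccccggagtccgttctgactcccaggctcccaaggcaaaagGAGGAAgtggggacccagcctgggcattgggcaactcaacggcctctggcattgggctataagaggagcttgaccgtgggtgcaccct
CTSG: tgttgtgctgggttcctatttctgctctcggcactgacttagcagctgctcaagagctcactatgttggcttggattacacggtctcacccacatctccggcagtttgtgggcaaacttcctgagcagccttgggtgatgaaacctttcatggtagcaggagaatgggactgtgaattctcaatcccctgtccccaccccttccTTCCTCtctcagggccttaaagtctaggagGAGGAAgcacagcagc
AZU1 held 2 matches to CAACTG, 129 and 49 bases before the start, PRTN3 held 1 match to GAGGAA at 88 bases, and CTSG held 2 matches to GAGGAA at 46 and 16 bases. These were the only matches among the 7 primary granule promoters in the table, of which 2 (28.6%) held GAGGAA and 1 (14.3%) held CAACTG, against 23.5% and 8.08% of all 14879 promoters. The 3 promoters printed thus hold all the matches of the list, and the other 4 hold neither motif. These promoters were poor in CpG: AZU1 held 7 CpG, PRTN3 6 and CTSG 3. The 7 primary granule genes in the table had a median ratio of observed to expected CpG of 0.27. It was 0.83 over 8808 expressed genes and 0.42 over 6071 genes below the floor or listed at 0. Low ratios were not particular to this list. The median was 0.11 for secondary and tertiary granule genes, 0.23 for monocyte and 0.27 for neutrophil markers. Stem and progenitor surface markers had 0.56 and myeloid transcription factors 0.84.

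Secondary and tertiary granule genes, made later in granulocyte maturation, were mostly below the floor. Of 12 members 2 were expressed (16.7%). CHI3L1, a chitinase-like glycoprotein, had 11.36, 11.37, 11.35 and 11.49 in the 4 libraries. BPI, a protein that binds bacterial endotoxin, had 8.02, 7.98, 8.02 and 8.05. It was counted in this list, though its protein is usually placed in primary granules. LTF (lactoferrin, -1.97), LCN2 (-1.98), CAMP (-1.54) and MMP8 (-0.23) were far below the floor, MMP9 was just under it at 3.70, and CEACAM8, CRISP3 and OLFM4 were listed at 0. Of 10 neutrophil markers 3 were expressed: the chemokine-like PROK2 (8.88), CSF3R, the G-CSF receptor (9.86), and the chemokine receptor CXCR2 (5.11).

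Of 33 monocyte and macrophage markers 18 were expressed (54.5%, beside 55.6% of all genes). The expressed ones were led per length by AIF1, an actin-binding protein of macrophages, with 11.04, 10.82, 10.91 and 11.02, and CD4, which monocytes carry as well as T cells, with 11.52, 11.41, 11.68 and 11.72. MS4A7 (10.03), the protease CTSS (10.52), the adaptor TYROBP (7.85) and CSF1R, the M-CSF receptor (8.28), came next. Also expressed were the integrins ITGAM (CD11b, 8.78) and ITGAX (6.83), the chemokine receptors CX3CR1 (8.77) and CCR2 (8.42), and the Fc receptors FCGR2A (7.78) and FCGR1A (6.71). So were FCER1G (4.06), an Fc receptor signalling chain, FGL2 (8.40), LGALS3 (7.42) and CD86 (5.47). The calcium-binding alarmins S100A9, with 7.29, 7.47, 6.60 and 6.66, and S100A8, with 6.63, 6.99, 6.07 and 6.12, were expressed too. Other markers of mature monocytes and macrophages were below the floor. CD14, the co-receptor for endotoxin, had levels of 2.67, 2.63, 2.56 and 2.55, and FCN1 (-0.01), VCAN (0.66), S100A12 (-1.73), CD163 (1.27), TREM1 (2.58), MARCO (2.84), CLEC7A (1.52), CD300E (0.58), MRC1 (-1.74) and the complement genes C1QA, C1QB and C1QC (at most -1.49) were below it too. FCGR3A was listed at 0. CD68 was at -1.03, but 97.6% of its coding bases lie in exons of another gene in the annotation, and what part this plays in its low value was not tested. In bulk RNA, fewer cells of a type and less RNA per cell cannot be told apart, which applies to each intermediate level in these lists.

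Among transcription factors of the myeloid lineage 18 of 23 were expressed (78.3%). IRF8, which directs monocyte and dendritic cell fate, was the highest per length, with 12.77, 12.85, 12.77 and 12.79 in the 4 libraries, and it exceeded the next factor beyond the spread. RUNX1 followed with 11.79, 11.93, 11.85 and 11.83, then its partner CBFB (10.38), MYB (12.18), SPI1, which encodes PU.1 (10.87), and ZEB2 (11.78). In the run from CBFB over MYB and SPI1 to ZEB2 no neighbours differed beyond the spread. CEBPA, the factor that drives granulocyte commitment, was at 11.58 ± 0.12. Factors below the floor included CEBPE (3.45), needed for secondary granules, MAF (-0.31) of macrophages, EGR2 (2.42), and BACH2, listed at 0. EGR1 (7.04), KLF2 (6.09) and TFEC (7.76) were the lowest of the expressed ones per length.

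Genes of stem and progenitor cells were split. Of 14 transcription factors 10 were expressed, with BMI1 (11.38), ETV6 (10.48), IKZF1 (12.02), LMO2 (10.61), LYL1 (9.71) and MSI2 (9.51) highest per length. GATA2, active in early progenitors, was the lowest expressed one at 6.65. TAL1 (1.23), ERG (0.95) and MECOM (-2.21) were below the floor and HLF was listed at 0. Of 13 surface and signature genes 3 passed: CD44, the hyaluronan receptor (10.76), CD38 (7.71) and KIT. CD34, the standard marker of immature blasts, had levels of 1.44, 1.60, 1.45 and 1.44.

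Genes of other blood lineages were largely below the floor. No T cell marker passed the floor (0 of 15, with 5 listed at 0), the closest being CD247 at 3.49 and CD8A at 3.48. Single genes stood out in lists that were mostly below the floor. PAX5, a B cell master regulator, had levels of 9.10, 9.28, 9.33 and 9.14, while its target CD79A was below the floor (2.78), MS4A1 was listed at 0 and EBF1 was at -1.49. NCAM1 (CD56), an NK cell marker that AML blasts can carry, had 10.46, 10.54, 10.82 and 10.61, and NKG7, a cytotoxic granule protein, 8.31, 8.17, 8.20 and 8.36, while PRF1 (3.23), GNLY (0.83) and GZMB (-1.50) were below the floor. TFRC, the transferrin receptor, and EPOR, the erythropoietin receptor (7.77), were the 2 of 16 erythroid genes that passed, and GATA1 (1.32) and KLF1 (-0.06) were below the floor. Of 10 megakaryocyte genes only GP1BA passed at 4.65, with ITGB3 (3.998) and ITGA2B (3.99) just under the floor. Of 11 dendritic cell genes BATF3 (7.17) and TCF4 (7.09) passed, and of 12 mast cell, basophil and eosinophil genes only GATA2. Of 30 surface antigens studied in leukaemia 20 were expressed, with CD47 (10.11), CD70 (10.27), CD37 (9.85) and ADGRE5 (10.21) after CD44 and PTPRC. CD274 (PD-L1, 0.26) and SIGLEC7 (-0.56) were below the floor and CD200 and CD96 were listed at 0.

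The HOX genes, which set positional and progenitor identity, fall into 4 clusters. In the HOXA cluster 9 of 11 genes were expressed. In HOXC 3 of 9 were, with 2 listed at 0. In HOXB the 8 genes with a value were below the floor (at most 2.03, HOXB4) and 2 were listed at 0. In HOXD only HOXD12 (-1.97) and HOXD13 (-2.21) had a value, and 7 of 9 genes were listed at 0, so the data say little about this cluster. The HOXA cluster lies on the minus strand of chromosome 7, with HOXA13 (27193503 to 27200106) at one end. HOXA9, the best known partner of MEIS1 in leukaemia, had levels of 9.11, 9.01, 9.15 and 9.19 in the 4 libraries. HOXA10 had 9.55, 9.40, 9.48 and 9.53. HOXA13, at the far end of the cluster, had 10.11, 9.90, 10.24 and 10.13. Per length HOXA9 (8.60) and HOXA10 (8.37) lay above HOXA13 (7.77). HOXA13 minus HOXA9 was -0.83 by the median transcript length and 0.24 by merged exons, and HOXA10 minus HOXA9 was -0.23 and 0.08, so the order of these 3 rests on the length used. Next came HOXA11 (8.34), of whose coding bases 70.1% overlap exons of HOXA11-AS, and HOXA5 (7.36), HOXA6 (5.50), HOXA3 (6.85) and HOXA7 (5.36). Of the coding bases of HOXA7 45.1% overlap exons of HOXA-AS3. HOXA2 (3.47) and HOXA4 (2.85) were under the floor. Of 8 neighbouring pairs in the order per length, 7 differed beyond the spread, the exception being HOXA6 and HOXA3. In HOXC, the expressed genes were HOXC4 (7.57), HOXC6 (5.75) and HOXC10 (5.41).

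**Figure D2:**
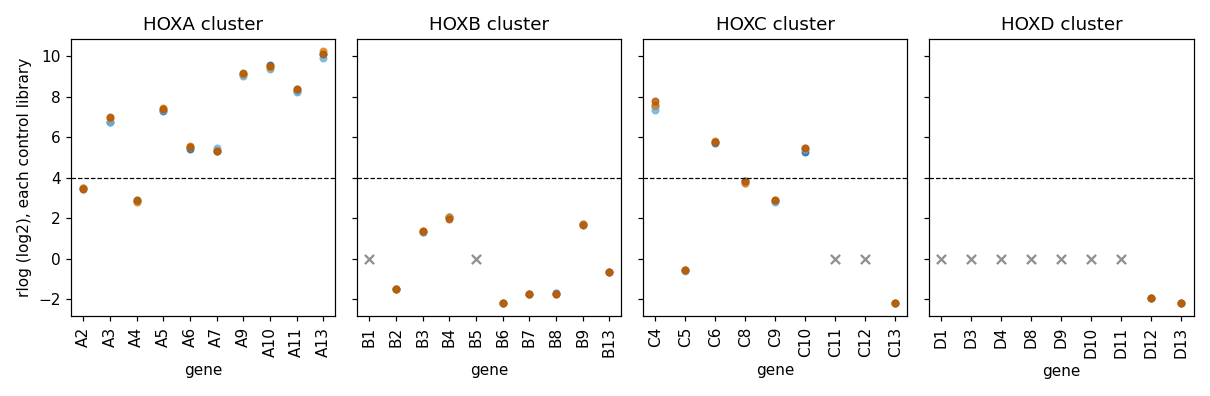
Rlog level (log2, y axis) of 38 genes of the 4 HOX clusters in each control library, 1 point per library (blues are libraries 1 and 2, oranges 3 and 4) and genes in order of their number. The dashed line is the floor of 4 and crosses are genes listed at 0. Points of the 4 libraries nearly coincide. Levels are not adjusted for length, and 7 HOXD and 2 HOXB genes have no value.

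The promoter of HOXA9 is shown because it is of the opposite kind to the granule genes, rich in CpG. Its 250 bases before the start (RefSeq, GRCh38.p14, chr7:27165538-27165787, minus strand) are given with each CpG in capitals.
HOXA9: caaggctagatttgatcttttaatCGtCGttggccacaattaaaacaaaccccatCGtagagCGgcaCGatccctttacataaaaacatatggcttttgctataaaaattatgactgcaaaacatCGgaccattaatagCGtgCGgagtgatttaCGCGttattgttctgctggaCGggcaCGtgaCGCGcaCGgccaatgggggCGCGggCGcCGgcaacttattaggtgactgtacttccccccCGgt
It held 20 CpG, a ratio of observed to expected of 1.34, and the 9 HOXA promoters in the table had a median ratio of 0.90.

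Of the TALE proteins that bind DNA beside HOX proteins, 6 of 10 were expressed. PBX3 had levels of 10.03, 9.79, 10.02 and 9.96 and MEIS1, the cofactor required by HOXA9 in leukaemia models, of 8.92, 8.90, 9.25 and 9.14. PBX2 (9.62), MEIS2 (8.89), PKNOX1 (8.39) and TGIF1 (8.37) were also expressed. PBX4 (0.82), MEIS3 (-0.17) and PKNOX2 (-2.21) were below the floor. Per length PBX3 and TGIF1 did not differ beyond the spread, nor did MEIS2 and MEIS1.

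Of 32 genes known as targets of MLL fusions 31 were expressed (96.9% against 55.6% of all genes), and EYA1 was listed at 0. Their median length-adjusted level was 8.67 ± 0.09, against 7.72 ± 0.02 for all expressed genes. This median takes in EYA1 at its listed 0, and with expressed members only it was 8.76. MYC, the growth regulator, led with 13.02, 12.95, 12.98 and 13.19 in the 4 libraries. It was followed per length by RUNX1, MYB, SOCS2 (11.26), ZNF521 (10.09) and ZEB2. The lowest were HOXA7, PDGFC (6.80) and RUNX2 (8.15). All 24 genes of the MLL complex and its cofactors were expressed. DOT1L, the H3K79 methyltransferase recruited by the fusion, had levels of 11.40, 11.56, 11.52 and 11.60, WDR5 was at 10.67, AFF1 at 11.48 and MLLT10 at 9.79. KMT2A had 9.72, 10.10, 10.13 and 9.74 and MLLT3 7.74, 7.71, 7.71 and 7.45, and at the level of the gene the normal and the fusion transcript of either are counted together. ELL2 (5.07) and MLLT3 were the lowest of the list per length. The median transcript of DOT1L and KMT2A is far shorter than the longest one, and by the longest transcript their length-adjusted levels were 8.62 and 5.87 in place of 11.98 and 10.06. Of 24 epigenetic regulators mutated in leukaemia all were expressed, with NPM1 (13.78), DNMT1 (12.65), SF3B1 (12.60) and RAD21 (12.31) highest and TET1 (6.56), U2AF1 (4.62) and TET2 (8.69) lowest per length. What part the assignment of reads between similar genes plays in the low value of U2AF1 was not tested.

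Among growth factor and cytokine receptors 25 of 30 were expressed (83.3%). FLT3 had levels of 12.34, 12.21, 12.32 and 12.27 in the 4 libraries (SD 0.06). IL6R, the interleukin-6 receptor, had 11.89, 12.03, 11.79 and 11.56. Per median transcript length IL6R lay above FLT3 by 1.22, and by the longest transcript below it (-1.09), so the order of these 2 rests on the length used. TGFBR1 (10.47), TNFRSF1A (10.39), IL4R (9.07), CXCR4 (10.39), which holds blasts in the marrow, and TNFRSF10B, the TRAIL receptor (11.07), were other receptors of the upper part of the order. TNFRSF1B (9.79), IFNGR1 (9.70), IL1RAP (9.51), CSF1R (8.28) and CSF3R (9.86) formed a run in which no neighbours differed beyond the spread. IFNGR2 (8.81), INSR (10.25), IFNAR1 (9.48), IFNAR2 (7.82), IL10RB (8.17), FAS (7.41), EPOR (7.77), IL6ST (7.50), TGFBR2 (8.07), CSF2RB (7.58), IGF1R (9.11) and IL10RA (7.13) made up the lower part. IFNAR2 and IL10RB share 86.9% and 80.8% of their coding bases with the annotated gene AP000295.1.

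KIT, the receptor for stem cell factor and a relative of FLT3, stood apart at the lower end with 4.56, 4.74, 4.60 and 4.58. Per length FLT3 exceeded KIT by 7.83 ± 0.14 (log2, SD over 4 libraries), and between 7.66 and 8.09 over the other length measures. KIT also lay 2.73 below the next receptor in the order, IL10RA. IL2RG (3.67, most of its coding bases shared with AL590764.2) and IL5RA (-1.97) were under the floor, and IL3RA and CSF2RA, both pseudoautosomal, were listed at 0. Of 24 neighbouring pairs of receptors 10 differed beyond the spread.

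Of 20 ligands 5 were expressed. TGFB1 had levels of 11.02, 10.76, 10.83 and 11.03, TNF of 9.48, 9.58, 8.86 and 8.95 and KITLG, the ligand of KIT, of 7.78, 8.03, 7.75 and 7.53. IL1B (4.56) and CSF1 (4.65) were close to the floor. FLT3LG, the ligand of FLT3, had 0.21, 0.20, 0.21 and 0.18, IL6, IL3, CSF2 and IFNG were listed at 0, and CSF3 (-2.21), THPO (-1.97) and IL34 (-1.73) were far below the floor. FLT3 was thus expressed with FLT3LG below the floor, and KITLG was expressed with KIT close to the floor. TNF was higher in libraries 1 and 2 than in 3 and 4, with no overlap.

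**Figure D3:**
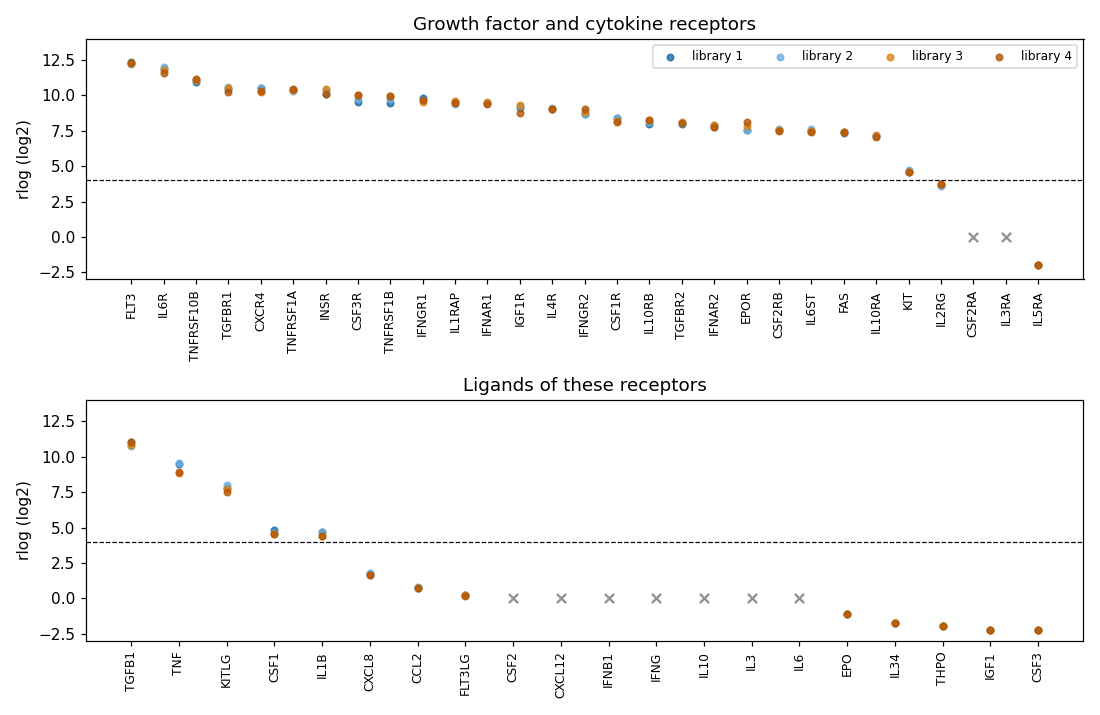
Rlog level (log2, y axis) of 29 receptors (top) and 20 ligands (bottom) in each of the 4 control libraries, sorted by mean level, with the floor of 4 as a dashed line and genes listed at 0 as crosses. Levels are not adjusted for length, so genes are not compared. KIT is close to the floor, and 5 of 20 ligands are above it, with 7 listed at 0.

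Downstream, all 26 genes of FLT3 and JAK-STAT signalling and all 31 of RAS-MAPK and PI3K signalling were expressed. STAT6 (11.78), the phosphatases PTPN6 (11.61) and PTPN11 (11.76), TYK2 (11.58), SOCS2 and GRB2 (11.97) were the highest of the first list per length, and SOS1 (8.98), SOCS3 (5.97) and JAK3 (7.25) the lowest. SOCS2 is a feedback gene of STAT5 and had 11.40, 11.11, 11.23 and 11.30 in the 4 libraries. In the second list AKT2 (11.10), MAP2K2 (10.99), the ERK target ETV5 (8.69) and PIK3R1 (9.84) were among the highest, and DUSP4 (4.99), DUSP5 (6.59) and SPRY4 (6.69) closed it. Their median length-adjusted levels were 8.35 ± 0.10 and 8.06 ± 0.03, against 7.72 ± 0.02 for all expressed genes.

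Adhesion and antigen presentation genes were present in most cases. Of 19 integrin and adhesion genes 15 were expressed, led by ITGB2 (12.45), the beta chain of leukocyte integrins, ITGB1 (10.56) and ITGAL (11.49), and ITGAD was below the floor. Of 20 MHC genes 16 were expressed. B2M (12.96), HLA-B (12.04), HLA-C (11.59) and HLA-E (11.59) of class I were high, whereas HLA-DRA of class II was lower and uneven, with 7.38, 7.42, 6.57 and 6.66. HLA-DPB1 (1.75), HLA-DQA1 (2.15) and HLA-DMB (3.68) were under the floor. Of 20 interferon-stimulated genes 13 were expressed, and IFI44L (0.34), OASL (1.99) and IFIT1 (3.34) were below the floor.

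Over the 20 lists of growth, metabolism, survival and regulatory machinery, 482 of 504 genes were expressed (95.6%), against 55.6% of all genes. Ribosomal proteins and the mitochondrially encoded genes had the highest medians of all lists per length. Of 52 large-subunit genes 50 were expressed, the exceptions being RPL3L (1.45), known from muscle, and RPL10L (-1.49), known from testis, and of the small subunit all 33. Their median length-adjusted levels were 14.25 ± 0.08 and 14.17 ± 0.10, 6.54 and 6.45 above the median of all expressed genes on the log2 scale. The highest, RPS18, had levels of 15.36, 15.48, 15.43 and 15.52. A few members lay far below the rest: RPS10 had 4.76, RPL17 6.58 and RPL36A 6.69. These 3 share 56.9%, 98.2% and 67.3% of their coding bases with exons of the read-through genes RPS10-NUDT3, RPL17-C18orf32 and RPL36A-HNRNPH2, and the part of this in their values was not tested. EIF4A1 (7.32, 86.8% shared) and PSMA2 (5.31, 97.1% shared) showed the same combination. EIF3C (6.46) and HSPA1A (1.60) share no annotated exon but have near-identical copies, EIF3CL and HSPA1B, between which reads cannot be assigned with certainty. Over all expressed genes, 4.37% share more than 50% of their coding bases in this way.

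**Figure D4:**
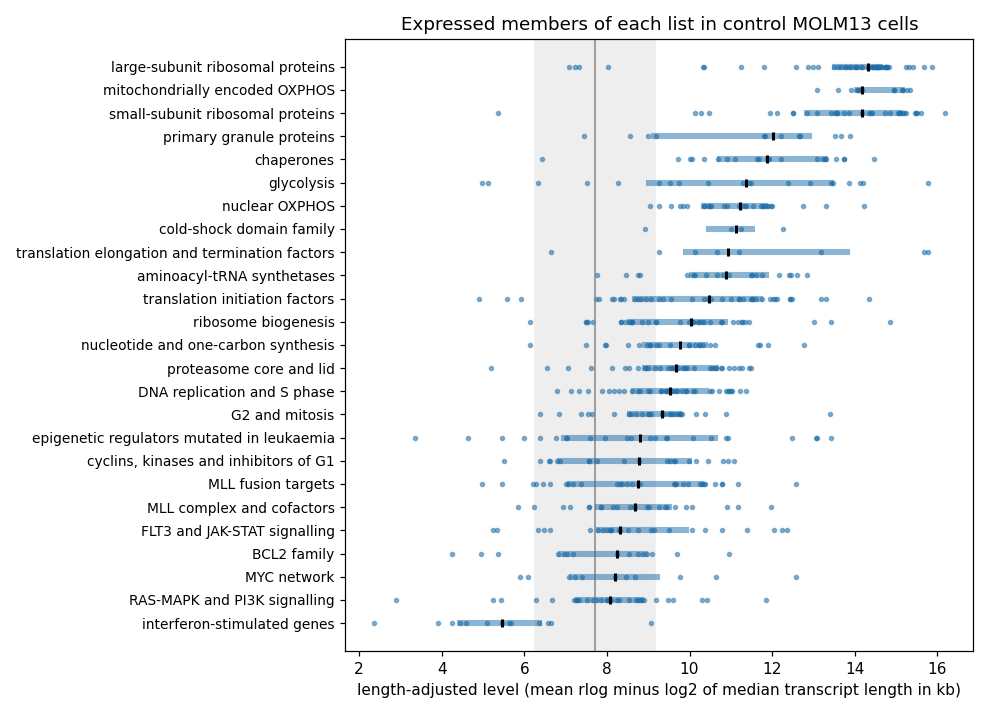
Length-adjusted level (mean rlog over the 4 control libraries minus log2 of the median transcript length in kb, x axis) of the expressed members of 25 lists. Points are genes, thick bars span the quartiles and black ticks mark medians; the grey line and band are the median (7.71) and quartiles (6.25 and 9.15) of all expressed genes. Ribosomal and mitochondrially encoded genes are at the top and interferon-stimulated genes at the bottom.

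All 42 translation initiation factors were expressed, with a median length-adjusted level of 10.48 ± 0.13. EIF3E (13.83), EIF4G2 (13.39), EIF3H (12.93), EIF3K (12.10), EIF4A2 (11.70) and EIF3D (12.23) were highest per length, and EIF3C, EIF2B2 (6.87) and EIF5A2 (5.10) lowest. Of 10 elongation and termination factors 8 were expressed, with EEF1A1 (16.81, 16.93, 16.89 and 16.88) and EEF2 (16.45, 16.53, 16.73 and 16.63) the highest per length, and GSPT2 (-0.57) below the floor. All 20 aminoacyl-tRNA synthetases and all 36 ribosome biogenesis genes were expressed. VARS (12.64) and TARS (12.19) led the synthetases, and the nucleolar proteins NCL (14.44), NPM1 (13.78) and FBL (12.56) the biogenesis genes.

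The cold-shock domain family, RNA-binding proteins to which the target of the study belongs, was expressed in 4 of 8 members. YBX1 had levels of 12.91, 12.96, 12.76 and 12.81 in the 4 libraries, YBX3 of 11.73, 11.87, 11.71 and 11.75 and CARHSP1 of 8.27, 8.43, 8.55 and 8.69. Per length YBX1 (12.26) exceeded YBX3 by 1.27 ± 0.06 and CARHSP1 by 3.34 ± 0.25 on the log2 scale (SD, n = 4), in every library and with each length measure. All 3 neighbouring pairs differed beyond the spread. The germline member YBX2 (1.30), LIN28A (-1.53), LIN28B (1.61) and CSDC2 (-2.21) were below the floor. The oncofetal RNA-binding protein IGF2BP2, counted among the MLL targets, had a level of 10.54.

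In the MYC network 11 of 13 genes were expressed. MYC was the highest, 3.90 ± 0.06 above its partner MAX (8.27) per length, with MXI1 (10.48) and MLXIP (10.48) between them. MYCN was listed at 0, MLXIPL was at -0.55, and MYCL (6.76) was low. All 38 genes of DNA replication and all 27 of G2 and mitosis were expressed, with MCM4 (12.93), PCNA (11.65) and MCM2 (11.85) leading replication and TOP2A (12.61), PLK1 (10.38) and TTK (9.55) leading mitosis. Of 24 G1 regulators 21 were expressed. MDM2 (10.76), CDK4 (10.56), CCND3 (11.60), CDKN1A (11.53) and CDKN1B (10.01) were among the highest per length. CCND3 exceeded CCND2 (10.58) by 2.04 ± 0.32 per length, and CCND2 exceeded CCND1 (7.65) by 2.40 ± 0.28. CDKN1C was below the floor (3.15). CDKN2A and CDKN2B, neighbouring inhibitors of CDK4 and CDK6 on chromosome 9 (21967753 to 21995301 and 22002903 to 22009363), were both listed at 0, and MTAP beside them (21802543 to 21937651) had levels of 8.75, 8.69, 8.65 and 8.65.

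Of the BCL2 family, which sets the threshold for cell death, 15 of 16 genes were expressed. Among the protective members MCL1 had levels of 11.60, 11.59, 11.51 and 11.49 and BCL2 of 10.60, 10.65, 10.68 and 10.31, and BCL2L1, which encodes BCL-XL (6.91), and BCL2A1 (4.83) were below both per length. BCL2L2 (7.73) did not differ from BCL2 beyond the spread. MCL1 exceeded BCL2 per length by 1.45 ± 0.14, and BCL2 exceeded BCL2L1 by 1.19 ± 0.22, in all 4 libraries and by each length measure. Of the pore formers BAX (10.06) lay above BAK1 (8.27) by 3.77 ± 0.12 per length, and BOK was below the floor (1.62). The size of this difference rests on the length used, being between 1.56 and 2.49 over the other length measures. Among the BH3-only genes BCL2L11, encoding BIM (9.57), BID (9.75), BIK (8.81), BMF (8.51), PMAIP1 (7.64), BBC3 (7.57), HRK (5.93) and BAD (4.57), the first 4 followed each other in the order per length with no neighbours beyond the spread. Of the 14 neighbouring pairs of the family 6 did.

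All 13 mitochondrially encoded genes of oxidative phosphorylation were expressed at a median length-adjusted level of 14.23 ± 0.24, close to the ribosomal genes, and the 28 nuclear ones at 11.23 ± 0.05. All 20 glycolysis genes were expressed, led by ENO1 (15.13), GAPDH (14.56), LDHB (13.71), ALDOA (14.38), LDHA (13.85) and GPI (12.72), with HK3 (5.77) and PFKM (4.44) lowest. All 34 proteasome genes, 22 of 23 chaperones and all 24 genes of nucleotide and one-carbon synthesis were expressed, with HSPA8 (14.54) and SHMT2 (12.41) leading the last 2 groups.

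The 4 libraries agreed closely. Over the expressed genes, which are not independent replicates, pairs of libraries correlated at 0.994 to 0.998, and the median gene had an SD of 0.09, that is, 1.07-fold on the linear scale. The median SD was between 0.08 and 0.10 in every range of levels, and smallest (0.0795) at levels 4 to 6. Rlog values of weakly covered genes are drawn towards their mean, so the SD can understate the scatter of such genes. A range of over 1 between the highest and the lowest library was found in 18 of 10974 expressed genes (0.164%), and one of over 0.5 in 454 (4.14%). Without library 1 the first count was 6 and the second 229, and without library 4 the second was 205. What variation there was had a common direction: 61.7% of the variance of deviations from the gene means lay on 1 component, on which libraries 1 and 2 had loadings of -0.62 and -0.34 and libraries 3 and 4 of 0.33 and 0.63. Libraries 3 and 4 both lay above libraries 1 and 2 in 23.1% of expressed genes and both below them in 28.6%. The labels give no difference between these pairs of libraries, which were seen in the data only.

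Each of the 20 most variable genes (mean level of at least 6) separated libraries 1 and 2 from 3 and 4, 15 of them being higher in 3 and 4. TBC1D30, a regulator of Rab GTPases, had the largest SD (0.96), with 9.12, 10.67, 11.22 and 11.05. LYZ was second with an SD of 0.76. PFKFB4, a regulator of glycolysis, had 6.99, 7.79, 8.61 and 8.54 in libraries 1 to 4, and ADM, the vasodilator peptide adrenomedullin, had 7.31, 7.66, 8.69 and 8.78. BNIP3, a mitophagy receptor, had 9.32, 10.33, 10.59 and 10.64, and NDRG1 had 9.94, 10.59, 11.19 and 11.17. DDIT4, an inhibitor of mTORC1, had 10.44, 10.91, 11.49 and 11.67. SLC2A3, a glucose transporter, had 10.17, 10.32, 11.18 and 11.07, and PDK1, a brake on mitochondrial pyruvate use, had 8.61, 9.42, 9.63 and 9.46. Library 1 was the lowest in 12 of the 20 genes. JPH2, ZNF395, PPFIA4, FCGR2B, CSRP3, CD300A and MT2A were also higher in libraries 3 and 4, by ranges between 1.001 (CSRP3) and 1.40 (ZNF395). The 5 genes that were lower in libraries 3 and 4 were LYZ, the monocyte gene FGL2 (8.95, 8.72, 8.004 and 7.91), SAMHD1, which hydrolyses deoxynucleotides (10.92, 11.05, 10.31 and 10.06), TFRC (12.07, 12.10, 11.23 and 11.29) and MT-ATP8 (11.22, 11.18, 10.90 and 9.98), the last mostly through library 4.

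**Figure D5:**
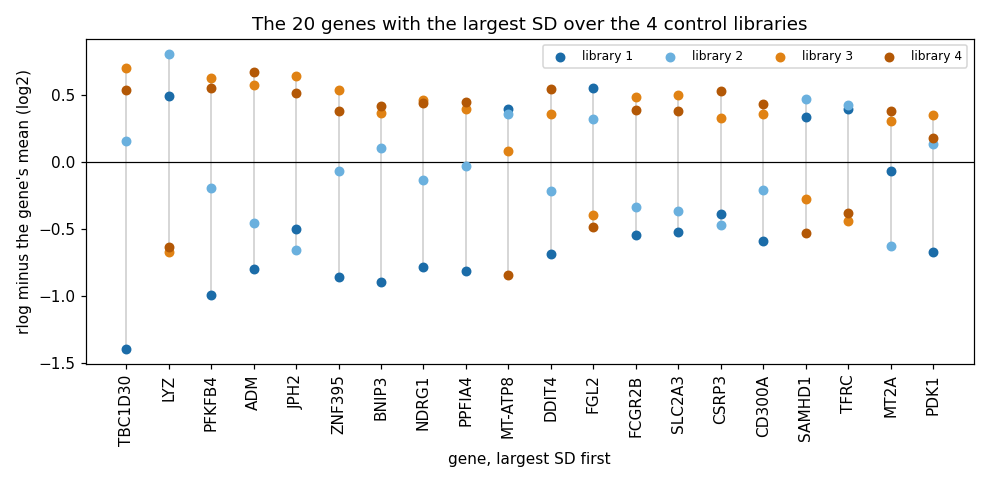
Deviation of each control library from the mean of the gene (rlog, log2, y axis) for the 20 genes with the largest SD among genes with a mean level of at least 6. Colours mark the 4 libraries and grey lines span their range. Libraries 3 and 4 lie on one side of libraries 1 and 2 for each gene, above them in 15 of 20.

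Some whole lists moved by small steps along the same division. All 13 mitochondrially encoded genes were lower in libraries 3 and 4 than in 1 and 2 (against 28.6% of expressed genes), with mean deviations of 0.21, 0.16, -0.13 and -0.24 in libraries 1 to 4. They share 1 genome and transcript source, and so are not independent of each other. The same held for 19 of 22 chaperones, 18 of 27 genes of G2 and mitosis, 24 of 36 of ribosome biogenesis and 21 of 38 of DNA replication. Genes of the mitotic list deviated by 0.20, 0.02, -0.11 and -0.10 on average. Against 23.1% of expressed genes that were higher in libraries 3 and 4, 9 of 20 glycolysis genes were higher and 2 lower. Of 50 large-subunit ribosomal genes 17 were higher and 3 lower. Of 33 small-subunit genes 9 were higher, near the share of all expressed genes, and 2 lower. Mean deviations of the ribosomal lists did not follow the division, as library 3 lay below library 2. In libraries 1 to 4 they were -0.06, 0.01, -0.02 and 0.08 (large subunit) and -0.07, 0.02, -0.02 and 0.08 (small subunit). Monocyte markers were divided, with 5 higher and 7 lower of 18, and mean deviations of 0.08, 0.06, -0.06 and -0.08 in libraries 1 to 4. The log2 of their summed signal, in which the highest genes weigh most, ranged over libraries from 13.31 to 13.40. In the primary granule list 4 were higher and 4 lower of 12. These pairs of libraries were read from the same data, so the counts describe the libraries and carry no test, and their part in the spread was not tested.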

How the data were processed

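Polyadenylated RNA of 4 control libraries was analysed out of 12. The authors aligned reads to GRCh38 and counted them per gene (the submitters' notes name STAR 2.7.5a as aligner, HTSeq 0.6.1pl as counter, and Picard 2.9.4, SAMtools and bcl2fastq 2.20.0.422), then made the deposited rlog values, log2 reads normalised by size factors over all 12 libraries, with DESeq2. The annotation release is not given in the sources used here. The table is named as having duplicates removed, which can lower the most abundant transcripts (not tested). The library kit does not mark strand, so overlapping genes cannot be told apart. No counts were used, so depth is unknown and the precision of a value is given only by the SD over 4 libraries.

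Genes were called expressed at a mean rlog of at least 4. Lengths came from GENCODE 29 (98.55% of identifiers matched), promoters from RefSeq. Neighbours in an order differ beyond the spread when the mean difference per library is at least 2 SD and has 1 sign in all 4. With 1 group there is no test. Scripts were run in Python 3.11.15 with NumPy 2.4.6, pandas 2.3.3 and Matplotlib 3.10.9 and tested on simulated data. Alternatives were other floors, lengths, scalings and each library left out.

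Members and lists were chosen with earlier results of these data known. All genes of the HOXA, TALE, cold-shock, receptor and BCL2 lists were named, except that some genes are not reported here. Of other lists up to 6 highest and 3 lowest per length were named, with members on the other side of the floor from most. The 15 highest genes per length and the 20 with the largest SD were named too. CEBPA, CD33, MTAP, IGF2BP2, HLA-DRA, CCND2, EIF4A1, further expressed monocyte markers and markers below the floor in lists mostly below it were named after their values were seen.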

Additional observations from a re-analysis of the deposited data

Results flagged for a closer look

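Among 304 named expressed genes and lists, 9 (2.96%) had 1 library far from the others, where chance gives about 1 in 20. The gap of that library to its nearest neighbour, as a share of the range of the 4 libraries, was above Dixon's critical value for 4 samples in each. Library 4 stood apart in 6 of them. It was the highest for the kinase AKT2 (11.19 against 11.07 to 11.07 in the others, share 0.952), the glycoprotein CHI3L1 (11.49 against 11.35 to 11.37, share 0.873) and the nucleolar protein FBL (12.70 against 12.51 to 12.53, share 0.910). It was the lowest for the G1 kinase CDK6 (12.11 against 12.43 to 12.45, share 0.929), the HOX cofactor MEIS2 (8.80 against 8.91 to 8.92, share 0.893) and the fusion partner MLLT3 (7.45 against 7.71 to 7.74, share 0.878). Library 3 was the highest for PTPRC (11.57 against 11.37 to 11.38, share 0.953) and the lowest for the median length-adjusted level of the RAS-MAPK and PI3K list (8.02 against 8.07 to 8.08, share 0.863). Library 1 was the lowest for the integrin ITGB2 (12.32 against 12.48 to 12.51, share 0.868). No cause was tested.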

How the results depend on the processing

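The count of expressed genes ranged from 10355 (floor of 5) to 11595 (floor of 3), and from 10973 to 10980 when each library was left out. The count of genes with a range over 1 was 6 without control replicate 1 and at most 16 without another, against 18 with all 4, and 20 with either other scaling. The count with a range over 0.5, a threshold chosen after seeing the data, was 205 to 383 with a library left out, against 454. The median length-adjusted level of expressed genes was 6.85 by the longest transcript, 6.29 by merged exons and 8.69 with no length adjustment, against 7.72, and 7.71 to 7.72 with a library left out. With expressed members only, list medians that had been below that of all expressed genes lay above it by 1.33 (secondary granule), 0.61 (neutrophil), 0.27 (erythroid), 1.53 (NK cell), 0.065 (TALE), 0.42 (receptors), 0.59 (surface antigens), 0.21 (integrins), 0.019 (MHC), 3.41 (cold-shock), 0.47 (MYC network), 0.91 (myeloid transcription factors) and 0.52 (BCL2 family). Members below the floor, including those listed at 0, were then left out. Crossings under other settings were the MYC network (above by 0.013 with no length adjustment), the myeloid transcription factors (above by 0.13 by the longest transcript and 0.16 by merged exons) and the BCL2 family (above by 0.028 without control replicate 4). Of neighbouring pairs in the 7 ordered lists, 41 differed beyond the spread by the median transcript length, 41 by merged exons and 42 with no adjustment. Members expressed moved to 4 and 0 of the megakaryocyte list (floors of 3 and 5), 2 of the T cell list and 2 of the mast cell list (floor of 3), and 1 of the B cell list and 3 of the ligands (floor of 5). Larger lists depended on the floor as well. Of 20 interferon-stimulated genes 13 were expressed at the floor of 4, 18 at 3 and 9 at 5. Of 30 leukaemia surface antigens these counts were 20, 23 and 17. No paired analysis was possible because only 1 group was described.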

Other observations

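Further lists had more members lower than higher in libraries 3 and 4 against libraries 1 and 2. Of 20 aminoacyl-tRNA synthetases, which charge tRNAs with amino acids, 11 were lower in libraries 3 and 4 and 2 higher. Of 24 genes of nucleotide and one-carbon synthesis 13 were lower and 2 higher, and of 34 proteasome genes 17 were lower and 2 higher. Of all expressed genes 28.6% were lower and 23.1% higher. Mean deviations of the synthetases were 0.17, -0.02, -0.07 and -0.08 in libraries 1 to 4, so mainly library 1 stood apart. Those of the proteasome genes were 0.11, 0.001, -0.10 and -0.01, with library 4 next to library 2. Nuclear genes of oxidative phosphorylation did not share the direction of the mitochondrially encoded ones, with 7 lower and 6 higher of 28.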
